A study of Arabidopsis thaliana with 12 samples.

Results

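LHCB4.1 (AT5G01530) and PORB (AT4G27440) are nuclear genes of chloroplast greening, each read by 1 probe set on the Affymetrix ATH1 array, 251082_at for LHCB4.1 and 253871_at for PORB. These were the 2 probe sets, of 22746 tested, that named either gene alone in the array's annotation. LHCB4.1 encodes CP29, a minor antenna protein that links the outer light-harvesting complexes to the core of photosystem II. PORB encodes a light-dependent protochlorophyllide oxidoreductase, the enzyme that reduces protochlorophyllide to chlorophyllide late in chlorophyll synthesis. Both proteins are made in the cytosol and imported into plastids. Cytokinins are plant hormones known to promote greening, and they act through type-B response regulators, transcription factors that are activated by phosphorylation.

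Shoot RNA of Arabidopsis thaliana seedlings, grown for 2 weeks on agar, was measured in 4 groups of 3 arrays. Mutant plants and wild type plants (Col-0) received a spray of 20 µM trans-zeatin (tZ), a natural cytokinin, over 1 h, and mutant and wild type plants were likewise sprayed with 0.02% DMSO as the control. The mutant's source is given as a pair of SALK T-DNA insertion lines, which are known as lines of the type-B regulator genes ARR10 and ARR12, and the labels do not state whether 1 plant carried both. Neither ARR10 nor ARR12 is named in the annotation used, so the disrupted genes were not checked. Whether the 3 arrays of a group are separate cultures is not stated, and p-values here reflect array-to-array spread alone, which may be technical.

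The signals are MAS5 intensities on a linear scale, with array medians of 33.8 to 35.7. The 27 control probe sets for bacterial transcripts that the samples should lack read at most 11.2. The 6 tZ arrays and the 6 DMSO arrays also differed in the reach of the labelled RNA. The 5′ to 3′ signal ratio of actin was 0.252 to 0.328 on tZ arrays and 0.0409 to 0.0579 on DMSO arrays, and that of GAPDH was 0.704 to 0.837 on tZ arrays and 0.226 to 0.294 on DMSO arrays. The treatment and this difference between array sets cannot be told apart in any tZ against DMSO comparison, whereas mutant and wild type were compared within each set. Because the RNA is from whole shoots, fewer cells of a type and less RNA per cell cannot be told apart.

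LHCB4.1 was bright on every array and differed little between groups. Its signal was 4365, 4659 and 5135 on the mutant tZ arrays and 5346, 4850 and 4806 on the wild type tZ arrays. It was 4913, 4638 and 5281 on the mutant DMSO arrays and 5250, 5095 and 5389 on the wild type DMSO arrays. Every pair of groups overlapped, and the brightest of the 12 arrays was 1.23 times the dimmest. LHCB4.1 lay in the upper part of the signal range of these arrays. Whether a rise in its RNA would show in full at this level was not tested. A flat signal is therefore not shown to be a flat RNA level.

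In the mutant, LHCB4.1 averaged 4720 ± 389 with tZ and 4944 ± 323 with DMSO (SD, n = 3 each). The log2 difference was -0.07 (SE 0.08, 95% interval -0.25 to 0.11, limma adjusted p = 0.575). In wild type it averaged 5001 ± 300 with tZ and 5244 ± 147 with DMSO, again a log2 difference of -0.07 (SE 0.08, interval -0.25 to 0.11, limma adjusted p = 0.556). Averaged over both genotypes the difference was -0.07, or -4.67%, with a 95% interval of -12.7% to 4.14% (limma adjusted p = 0.367). Its sign turned under quantile normalization (0.030, limma adjusted p = 0.614). An exact permutation test within genotype gave p = 0.18 for the same difference (two-sided, adjusted p = 0.24 over 4 tests, smallest possible p 0.005).

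PORB was somewhat higher with tZ on average, but it did not pass the threshold of 0.05. Its signal was 1484, 1432 and 1827 on the mutant tZ arrays and 1663, 1568 and 1618 on the wild type tZ arrays. It was 1471, 1273 and 1373 on the mutant DMSO arrays and 1399, 1659 and 1470 on the wild type DMSO arrays. The tZ and DMSO groups overlapped within each genotype, and mutant tZ replicate 3 stood above the other 11 arrays.

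In the mutant, PORB averaged 1581 ± 214 with tZ and 1372 ± 99.1 with DMSO, a log2 difference of 0.20 (SE 0.09, interval -0.0073 to 0.40, limma adjusted p = 0.117). In wild type it averaged 1616 ± 47.5 with tZ and 1509 ± 135 with DMSO, a log2 difference of 0.10 (SE 0.09, interval -0.10 to 0.31, limma adjusted p = 0.434). Averaged over genotypes the difference was 0.15, or 10.9%, with a 95% interval of 0.35% to 22.6% (limma adjusted p = 0.0792). The exact permutation test within genotype gave p = 0.055 (two-sided, adjusted p = 0.22). This average passed when arrays were set to a common median (log2 0.19, limma adjusted p = 0.0296), and it turned to -0.039 under quantile normalization (limma adjusted p = 0.666), so neither a direction nor a call is settled for PORB. It was 0.095 without mutant tZ replicate 3 (limma adjusted p = 0.199).

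**Figure D1:**
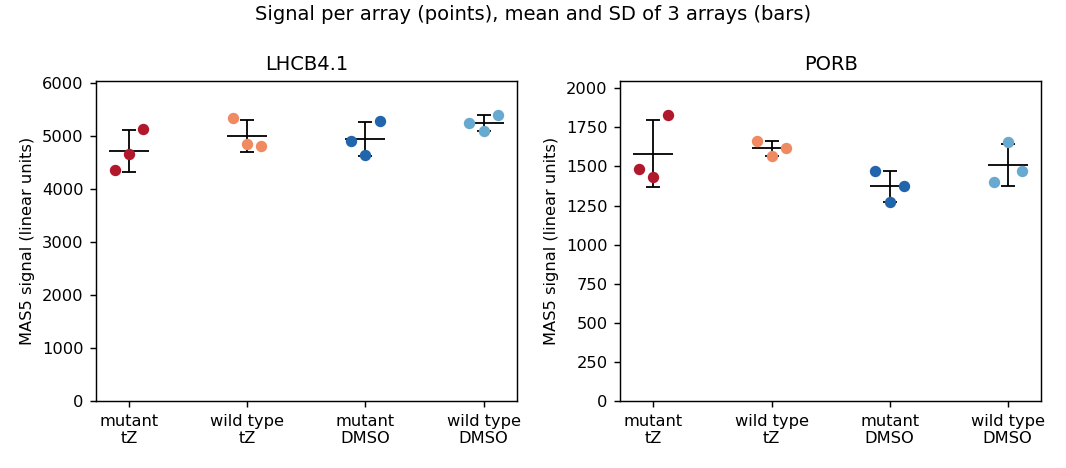
MAS5 signal of LHCB4.1 (left) and PORB (right) on each of the 12 arrays, with the group mean and SD (n = 3); both axes start at 0. Points of all 4 groups overlap for LHCB4.1, and for PORB mutant tZ replicate 3 is the highest array at 1827.

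Both genes can be set against the rest of the array. Of 22746 probe sets, 42.8% passed for tZ against DMSO in the mutant, 43.6% in wild type and 51.7% in the average over genotypes, whereas 0 of the 2 genes passed in any of the 3 by limma. Among the 600 probe sets with a mean signal of at least 1000, a limit chosen after the data were seen, the shares were 76%, 75.8% and 82.7%. The median absolute log2 difference of these 600 was 0.448 in the average, against 0.069 for LHCB4.1 and 0.149 for PORB in size. The limit of 1000 does not match these probe sets to the level of LHCB4.1, which was far brighter. The spread between arrays of a group was 0.089 on the log2 scale for LHCB4.1 and 0.126 for PORB, and the median of the 600 was 0.091. The spread of LHCB4.1 was thus close to that of other bright probe sets, and 78.3% of them had a smaller spread than PORB.

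The mutant and wild type did not differ detectably in either gene. Under tZ the log2 difference of mutant minus wild type was -0.08 for LHCB4.1 (SE 0.08, interval -0.27 to 0.10) and -0.04 for PORB (SE 0.09, interval -0.24 to 0.16), each with a limma adjusted p of 0.999. Under DMSO it was -0.09 for LHCB4.1 (interval -0.27 to 0.09, limma adjusted p = 0.804) and -0.13 for PORB (interval -0.34 to 0.07, limma adjusted p = 0.704). Both genes were therefore lower on average in the mutant under both sprays, within the spread between arrays.

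Averaged over treatments, mutant minus wild type was -5.77% for LHCB4.1 (95% interval -13.7% to 2.94%, limma adjusted p = 0.763) and -5.87% for PORB (95% interval -14.8% to 4.02%, limma adjusted p = 0.796). Exact permutation tests within treatment gave p = 0.11 for LHCB4.1 and p = 0.26 for PORB (two-sided, adjusted p = 0.22 and 0.26). In these contrasts 0.0352% of all probe sets passed under tZ, 0.0132% under DMSO and 0.0572% in the average, so few probe sets of any kind were called.

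The response to tZ was also compared between genotypes. For LHCB4.1 the mutant's response minus that of wild type was 0.0018 on the log2 scale (SE 0.12, interval -0.25 to 0.26, limma adjusted p = 1.00). For PORB it was 0.09 (SE 0.13, interval -0.19 to 0.38, limma adjusted p = 0.94), and without mutant tZ replicate 3 it was -0.013. No probe set (0%) passed this interaction by limma, and 7.03% had an unadjusted p under 0.05. The width of these intervals does not show like responses.

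**Figure D2:**
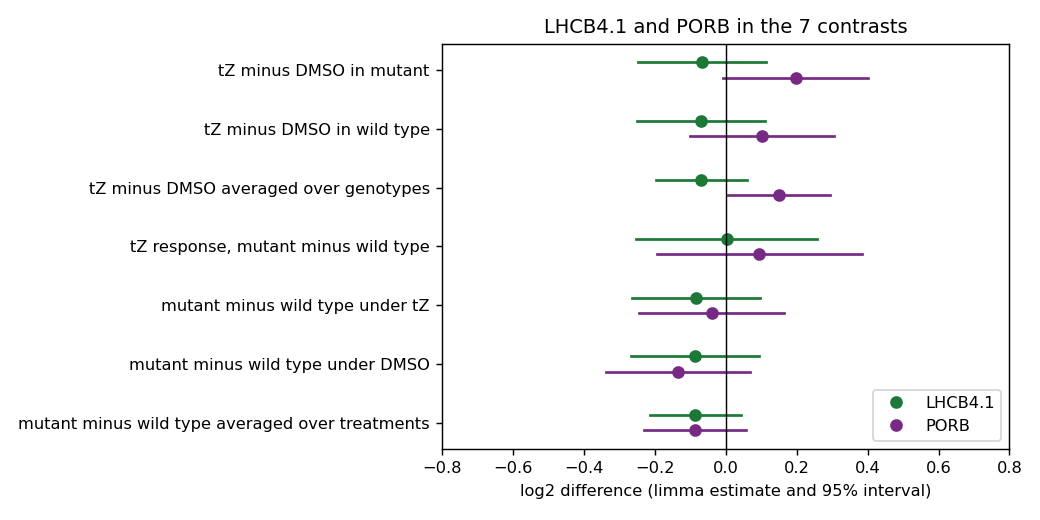
Log2 differences of LHCB4.1 (green) and PORB (purple) in 7 contrasts, as limma estimates with 95% intervals. All intervals cross 0 except that of PORB for tZ minus DMSO averaged over genotypes, which runs from 0.0050 to 0.29 and did not pass after adjustment.

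The order of group means for LHCB4.1 was mutant tZ, mutant DMSO, wild type tZ and wild type DMSO from low to high, and neighbours in this order overlapped. For PORB the order was mutant DMSO, wild type DMSO, mutant tZ and wild type tZ. Neighbours overlapped here too. The wild type tZ arrays (1568 to 1663) and the mutant DMSO arrays (1273 to 1471), at the ends of the order, did not overlap. This pair was picked by its own values, and it differs in genotype, treatment and array set at once. The share of all probe sets with such a gap is not given here, so no result for PORB is drawn from it.

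The paralogs of LHCB4.1 were measured as well, and both passed by limma for tZ against DMSO in the average over genotypes. So did 51.7% of all probe sets and 82.7% of the 600 with a mean signal of at least 1000. These calls alone do not set the paralogs apart. Arabidopsis has 3 LHCB4 genes, which encode isoforms of the same antenna protein, and each had a probe set of its own. Close paralogs can share some signal, and these lists of related genes were drawn up with earlier results of these data known.

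LHCB4.2 (AT3G08940) read 3163, 3648 and 3909 on mutant tZ arrays and 3761, 3276 and 3333 on wild type tZ arrays. It read 3402, 2812 and 3037 on mutant DMSO arrays and 3123, 2738 and 3000 on wild type DMSO arrays. The groups did not overlap in wild type and overlapped in the mutant, and the share of all probe sets without overlap is not given here. LHCB4.2 rose with tZ in the average over genotypes by 0.22 on the log2 scale (SE 0.07, interval 0.07 to 0.37, limma adjusted p = 0.0167), and it did not pass within the mutant (0.21, limma adjusted p = 0.106) or within wild type (0.23, limma adjusted p = 0.0819).

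LHCB4.3 (AT2G40100) moved the other way. It read 866, 865 and 768 on mutant tZ arrays and 697, 812 and 704 on wild type tZ arrays, against 1217, 1603 and 1403 on mutant DMSO arrays and 1449, 865 and 1196 on wild type DMSO arrays. The tZ and DMSO groups did not overlap in either genotype, and the share of all probe sets that did the same is not given here. By limma 42.8% of all probe sets passed in the mutant and 43.6% in wild type. LHCB4.3 fell by 0.74 on the log2 scale in the mutant (limma adjusted p = 0.0010), by 0.63 in wild type (limma adjusted p = 0.0033) and by 0.69 in the average (SE 0.11, limma adjusted p = 6.9e-05).

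Differences between these responses were tested within arrays, in comparisons chosen after the data were seen. The log2 ratio of LHCB4.2 to LHCB4.1 was 0.29 higher on tZ arrays than on DMSO arrays (0.18 under quantile normalization, exact permutation p = 0.01), and that of LHCB4.3 to LHCB4.1 was lower, at -0.62. Each had p = 0.005, the smallest that the exact permutation test within genotype can give (two-sided, adjusted p = 0.0075 over 3 ratios). The difference between tZ and DMSO arrays in LHCB4.1 was thus unlike those of both paralogs. A ratio within an array does not separate the treatment from the difference between array sets, so this is not shown to be a response to tZ. LHCB4.1 was also brighter than both paralogs, and whether its signal follows its RNA in full at that level was not tested. The ratio of PORB to LHCB4.1 was 0.22 higher with tZ (exact permutation p = 0.02, adjusted p = 0.02), but this turned to -0.0695 under quantile normalization (exact permutation p = 0.34).

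**Figure D3:**
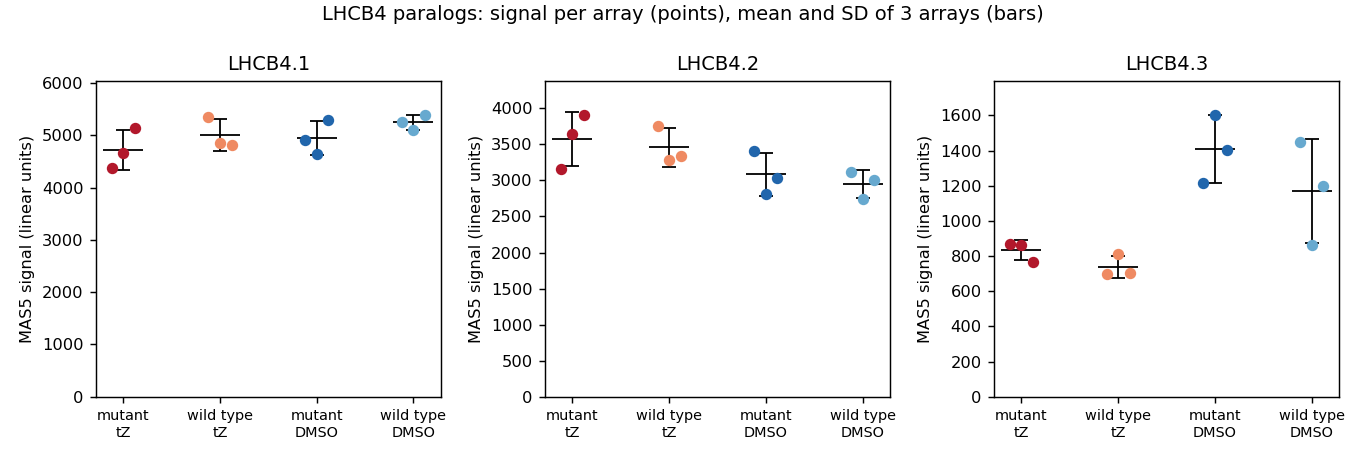
MAS5 signal of the 3 LHCB4 genes on each array, with group mean and SD (n = 3) and axes from 0. LHCB4.3 is lower with tZ within each genotype (697 to 866 on tZ arrays, 865 to 1603 on DMSO arrays), LHCB4.2 is higher on average, and LHCB4.1 overlaps throughout.

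Beside PORB, 10 other genes of chlorophyll and heme synthesis were measured by name, 11 of 40 listed. In the average over genotypes 4 of the 11 were higher with tZ, 1 was lower and 6, PORB among them, did not pass. The median log2 difference of the 11 was 0.11, and that of all probe sets was -0.070, with 21.4% of all probe sets called higher and 30.4% lower. In the mutant 3 were higher and 1 lower (17.9% and 24.9% of all probe sets), and in wild type 4 were higher and 0 lower (18.2% and 25.4%).

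The measured genes for steps of the pathway that come before PORB did not move as one. With 11 of 40 listed genes measured, other genes for the same steps can be missing here. HEMA2 (a glutamyl-tRNA reductase, at the entry of the pathway) fell by 0.39 on the log2 scale (limma adjusted p = 0.0052). It was dim, with 40.1 to 64.3 on tZ arrays and 51.3 to 78.4 on DMSO arrays. GSA1 (glutamate-1-semialdehyde aminomutase) had -0.07 and HEMB1 (aminolevulinate dehydratase) had 0.07, and neither passed. HEME2, a uroporphyrinogen decarboxylase gene, rose by 0.80 (limma adjusted p = 1.2e-05). It read 822 to 892 on mutant tZ arrays and 684 to 790 on wild type tZ arrays, against 401 to 552 on mutant DMSO arrays and 362 to 585 on wild type DMSO arrays. Its paralog HEME1 rose by 0.19 (limma adjusted p = 0.0286), a call lost without any 1 of 7 arrays (limma adjusted p up to 0.078). The HEME1 call was also lost in 2 of 8 processing settings (limma adjusted p up to 0.0757). HEMF2, annotated as a coproporphyrinogen oxidase gene, was called higher (limma adjusted p = 6.9e-05), with 16.3 to 28.1 on tZ arrays and 2.34 to 11.1 on DMSO arrays. Its DMSO signals all lay below the highest absent-control signal, so the size of the difference is not measured, and the fitted log2 value ran from 0.38 to 1.91 over the processing settings.

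Closer to PORB in the pathway, CHLI2, a subunit gene of the magnesium chelatase that commits porphyrin to chlorophyll, rose by 0.25 (limma adjusted p = 6.6e-04). It read 284 to 329 on mutant tZ arrays and 297 to 321 on wild type tZ arrays, against 233 to 263 on mutant DMSO arrays and 249 to 268 on wild type DMSO arrays. CHLM, the magnesium-protoporphyrin methyltransferase gene, had 0.11 (interval -0.017 to 0.23, limma adjusted p = 0.142), near the value of PORB and likewise without a call. HEMA3 and HEMB2 stayed within the range of the absent controls on all arrays. NOL, the 1 measured gene of chlorophyll breakdown of 11 listed and a chlorophyll b reductase gene, fell by 0.43 (limma adjusted p = 1.4e-05), with 202 to 236 on tZ arrays and 260 to 333 on DMSO arrays. In mutant against wild type averaged over treatments, 0 of these 12 genes passed by limma. Of all probe sets 0.0572% passed in that contrast, so the count is not particular to these genes.

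**Figure D4:**
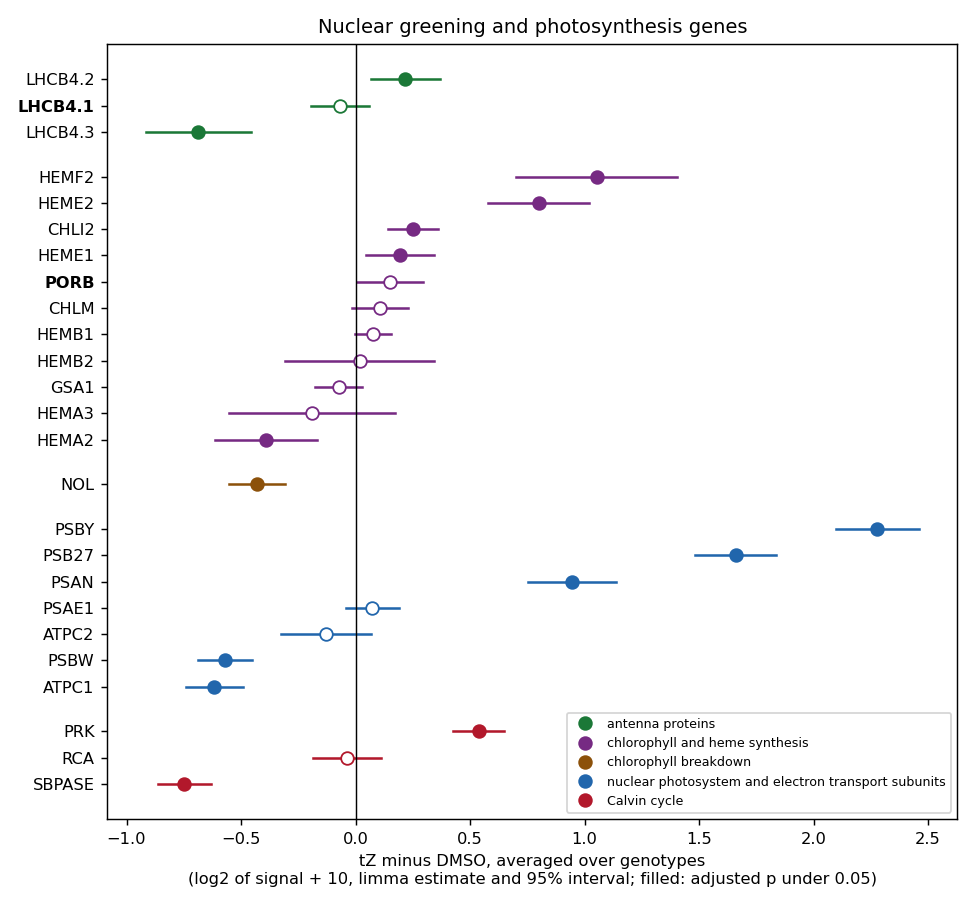
Log2 difference of tZ minus DMSO, averaged over genotypes, with its 95% interval, for all measured nuclear genes of 5 lists; filled points have a limma adjusted p under 0.05. LHCB4.1 (-0.07) and PORB (0.15) are open points near 0, and so are others, among them GSA1, HEMB1, CHLM and RCA. The genes called run from -0.75 (SBPASE) to 2.28 (PSBY).

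Other nuclear photosynthesis genes show that changes on these arrays ran both ways. Of 7 measured photosystem and electron transport genes of 38 listed, 3 were higher, 2 lower and 2 did not pass in the average (median log2 difference 0.07). Of all probe sets 51.7% passed, and 82.7% of the 600 bright ones, so this share of calls is near the background. PSBY, a small subunit of photosystem II, had the largest rise of the 7 (2.28, limma adjusted p = 6.1e-11), with 3555 to 4397 on tZ arrays and 661 to 982 on DMSO arrays. PSB27, a photosystem II assembly factor, rose by 1.66 and PSAN, a luminal subunit of photosystem I, by 0.95. ATPC1, the gamma subunit of the plastid ATP synthase, fell by 0.62, with 3003 to 3680 on tZ arrays and 4833 to 5399 on DMSO arrays.

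Of 3 measured Calvin cycle genes of 17 listed, PRK (phosphoribulokinase) rose by 0.54, SBPASE (sedoheptulose-bisphosphatase) fell by 0.75, and RCA (rubisco activase) did not pass (-0.04, limma adjusted p = 0.698). RCA resembled LHCB4.1 in that its tZ arrays (4577 to 5618) and DMSO arrays (4659 to 5685) overlapped. Of the greening regulators, HYH (a light-signalling bZIP factor) had 0.08 and EIN3 (a transcription factor of ethylene signalling) had 0.12. By limma 0 of these 2 measured genes of 31 listed passed (limma adjusted p = 0.44 and 0.0843). Of 45 measured plastid-encoded photosynthesis genes 10 were higher and 26 lower in the average, with a median of -0.33, against 21.4% higher, 30.4% lower and a median of -0.070 over all probe sets. Among these the photosystem II gene psbB had 266 to 341 on tZ arrays and 1082 to 1319 on DMSO arrays, and ycf4, petL and psbE had log2 differences of -1.90, 1.32 and 1.29. LHCB4.1 and PORB lay between these rises and falls.

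Known cytokinin targets were measured in the same RNA. In the average over genotypes 3 of 3 measured genes of 16 listed rose by limma, namely ARR15, ARR16 and UGT76C2. Of all probe sets 21.4% were called higher in that average. Under tZ the mutant had less of each than wild type (limma adjusted p at most 0.0019), a contrast in which 0.0352% of all probe sets passed. Within the mutant 2 of the 3 were called higher, against 17.9% of all probe sets. ARR16 did not pass there (log2 difference 0.12, limma adjusted p = 0.239), with 97.0 to 111 on mutant tZ arrays and 86.3 to 99.8 on mutant DMSO arrays. ARR15 read 154 to 487 on tZ arrays and 8.91 to 18.9 on DMSO arrays. Its DMSO signals reach into the range of the absent controls, and its fitted log2 difference ran from 2.35 to 4.31 over the processing settings. No mesophyll marker of 8 listed was measured by name. The shoot label was thus not checked with leaf markers independent of the photosynthesis genes studied here. Of 2 measured root markers of 13 listed, EXPA7, a root hair expansin, read 1.75 to 14.0, near the absent controls. PYK10, a beta-glucosidase of roots and seedlings, read 483 to 736 on tZ arrays and 639 to 1271 on DMSO arrays (log2 difference -0.74). Its part in the values of LHCB4.1 and PORB was not tested. FAMA of guard cells and the stress gene ZAT10, 1 measured gene each of 8 and 16 listed, did not pass. CLV3 of the meristem, 1 of 6 listed, passed (-0.28, limma adjusted p = 0.0321), with all signals in the range of the absent controls. No marker of the epidermis or of vascular tissue was measured.

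LHCB4.1 and PORB were compared with each other within each array set. On the 6 tZ arrays their log2 signals had Pearson's r = 0.764 (exact permutation p = 0.0722, adjusted p = 0.144 over 2 tests) and Spearman's rho = 0.829 (exact permutation p = 0.0583). On the 6 DMSO arrays r was 0.377 (exact permutation p = 0.454) and rho 0.0857 (exact permutation p = 0.919). Without the 2 arrays farthest from the median of LHCB4.1, r was 0.971 on tZ arrays and -0.682 on DMSO arrays, so no common relation was found.

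The genes whose pattern over the 12 arrays was most like each of the 2 were found by Pearson's r among 5087 probe sets that named 1 gene and had a mean signal of at least 50. For LHCB4.1 these were AT4G17370 (r = 0.916), AT1G19170 (0.823), AT3G60320 (0.803), TRM82 (0.798) and AT1G11930 (0.761). For PORB they were AT5G50370 (r = 0.884), AT2G15240 (0.870), AT4G10170 (0.846), AT1G09750 (0.836) and AT1G16570 (0.831). None of the 10 is a gene of the greening lists. Those lists had only 3 antenna, 11 synthesis, 1 breakdown and 2 regulator genes measured, so this absence carries little information. PORB and LHCB4.1 ranked far down each other's order (r = 0.248). With deviations from the group means in place of the signals, 1 of the 5 for LHCB4.1 and 0 of the 5 for PORB were again among the first 5, so the choice is unstable.

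**Figure D5:**
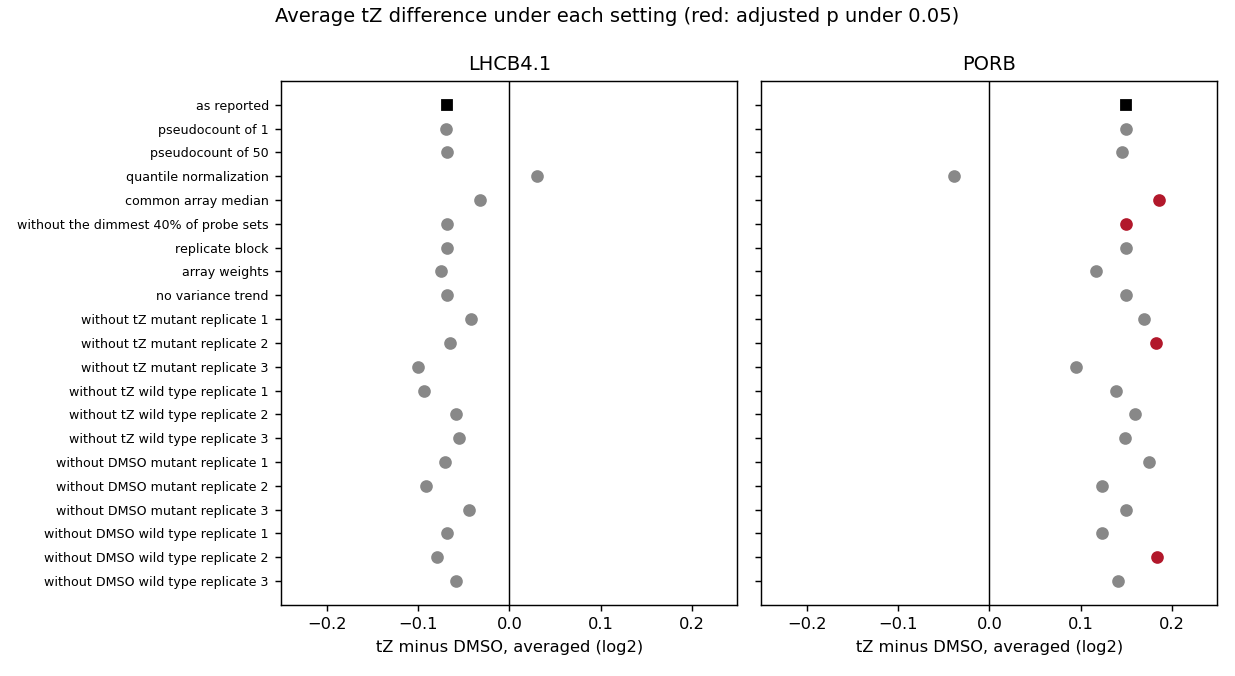
Average tZ minus DMSO log2 difference of LHCB4.1 and PORB as reported (square) and under each alternative (circles), including each array left out; red marks a limma adjusted p under 0.05. LHCB4.1 stays between -0.10 and 0.030 with no call, and PORB runs from -0.039 under quantile normalization to 0.19 with a common array median.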

How the data were processed

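Total RNA was hybridised to ATH1 arrays, 12 in all. The authors deposited MAS5 signals, per the submitters' processing notes: 1 intensity for each probe set, on a linear scale. From the values, each array had a 2% trimmed mean of 100.0. The number of arrays limits the precision. Probe sets were named from the platform annotation, in which 13513 named 1 gene, 503 several and 8730 none. The values entered limma 3.58.1 as log2(signal + 10) under R 4.3.3, with 1 mean for each of 4 groups, a variance trend and Benjamini-Hochberg adjustment over 22746 probe sets within each contrast, two-sided, at 0.05. A fold on this scale understates changes of dim probe sets. Intervals are the fit's 95% intervals and ± is the SD. The fits and permutation tests were tested on simulated data. The members and gene lists were chosen with earlier results of these data known. Matches of FDH and TIM to other loci were removed. Named were both genes, all measured genes of the antenna, chlorophyll synthesis, breakdown and regulator lists, up to 4 of each other list by p, and the 5 of most similar pattern. Alternatives were other pseudocounts, scalings, filters, weights, a replicate block and each array left out. No sequence is shown. Tables were handled in pandas 2.3.3 and plots drawn in matplotlib 3.10.9.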

Additional observations from a re-analysis of the deposited data

How the results depend on the processing

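Of 144 alternative fits of LHCB4.1 over 7 contrasts, 0 gave a call and 11 changed the sign of a difference near 0. Of 144 for PORB, 4 gave a call, all for tZ minus DMSO averaged over genotypes, and 5 changed sign. The causes were not tested. Under quantile normalization the tZ differences of LHCB4.1 were 0.050 in the mutant, 0.011 in wild type and 0.030 on average, those of PORB were -0.082 in wild type and -0.039 on average (the same averages in the permutation tests, 0.030 and -0.039), and PORB relative to LHCB4.1 was -0.0695. That scaling also gave calls for GSA1 (-0.1486, limma adjusted p = 0.0125) and EIN3 (0.1811, limma adjusted p = 0.0133) and turned HEMB1 to -0.0489, CHLM to -0.0855 and RCA to 0.064. A common array median gave calls for EIN3 (limma adjusted p = 0.0231), HEMB1 (limma adjusted p = 0.0273) and CHLM (limma adjusted p = 0.0478). The PORB average passed with a common array median (0.19), without the dimmest 40% of probe sets (0.15, limma adjusted p = 0.0456, with fewer probe sets adjusted over), without mutant tZ replicate 2 (limma adjusted p = 0.0437) and without wild type DMSO replicate 2 (limma adjusted p = 0.0369). With each array left out it ran from 0.095 to 0.18. The interaction of LHCB4.1 was -3e-04 with a common median, -0.0087 with array weights and -0.061 to 0.056 with each array left out. That of PORB ran from -0.013 to 0.16, and PORB in mutant minus wild type under tZ from -0.15 to 0.027. HEMB2 was -0.021 with array weights. With each array left out HEMB2 ran from -0.085 to 0.14, EXPA7 from -0.046 to 0.21 and RCA from -0.069 to 0.0021. Of 675 fits of 34 named genes 642 kept direction and side of the threshold.

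Replicate numbers are shared by the groups, but same-numbered arrays did not visibly deviate together (r from -0.24 to 0.17 over 18 pairs, 4 over 0.1). Pairs of arrays with other numbers had r from -0.18 to 0.25 (7 of 36 over 0.1). With 3 arrays per group this cannot show whether a number stands for a shared culture. With a replicate block the average tZ difference was -0.069 for LHCB4.1 and 0.15 for PORB (limma adjusted p = 0.098), and no call of either gene changed. The block lowered the calls of mutant against wild type averaged over treatments to 6, against 13 without it. Without the dimmest 40% of probe sets these calls numbered 26, those under DMSO 18 against 3, and those under tZ 15 against 8. Array weights gave 22 under tZ, no variance trend gave 5 in the average, and leaving out 1 array gave 5 to 15 in the average and 3 to 10 under DMSO. The interaction had at most 2 calls under any setting, against 0. Signals near the absent controls limit HEMA3, HEMB2, HEMF2, ARR15 with DMSO, EXPA7 and CLV3, and CLV3 no longer passed in 8 of the 12 leave-one-out fits.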

Other observations

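The ratio of LHCB4.2 to LHCB4.1 within an array, looked at after the data were seen, was also compared between genotypes. The log2 ratio averaged -0.54 ± 0.18 on the 6 mutant arrays and -0.68 ± 0.17 on the 6 wild type arrays (SD), a difference of 0.14 with an exact permutation p of 0.015 within treatment (two-sided, adjusted p = 0.045 over 3 ratios). Under quantile normalization the difference was 0.12 (exact permutation p = 0.025) and did not pass after adjustment (adjusted p = 0.075), so the call depends on the scaling. Over all 6 arrays of each genotype the values overlapped, from -0.80 to -0.35 in the mutant and from -0.89 to -0.51 in wild type. These ranges and SDs pool tZ and DMSO arrays, between which the ratio itself differed by 0.29. They therefore do not show whether the genotypes overlap within a treatment. Neither gene passed alone in this comparison by limma. The ratio of LHCB4.3 to LHCB4.1 had a difference of 0.32 (exact permutation p = 0.055).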
